A study of Mus musculus with 4 samples.

Results

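CC chemokine ligands are small secreted proteins, named for a pair of adjacent cysteines near their amino end, that draw leukocytes along a gradient by binding G protein-coupled receptors of the CCR family. Macrophages exposed to lipopolysaccharide (LPS), the bacterial outer-membrane component sensed by Toll-like receptor 4, are a main source of them, and the ligand repertoire helps set which cells arrive at a site of infection. The mRNAs of 10 of these ligands are described here: Ccl2, Ccl7 and Ccl12, which attract monocytes through Ccr2; Ccl3, Ccl4 and Ccl5, which attract monocytes, T cells and other leukocytes; Ccl6 and Ccl9, rodent ligands of Ccr1; and Ccl17 and Ccl22, which attract T cells through Ccr4. They were chosen by gene symbol from a mouse gene annotation and make up 10 of the 52550 gene identifiers counted. The choice was made with earlier results of these data known. Shares of tested genes given beside ligand counts are therefore descriptive.

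The cells were bone marrow-derived macrophages, which are differentiated in culture from precursors in the marrow, and the mice were C57BL/6 aged 8 to 10 weeks. Polyadenylated RNA was sequenced from 4 libraries, 1 per group. They were miR-7 deficient macrophages given LPS at 100 ng/mL for 12 h, miR-7 deficient macrophages left unstimulated, wild-type macrophages given the same LPS treatment, and wild-type macrophages left unstimulated. The labels do not say which of the miR-7 genes was altered or by what means, and mature miR-7 was not measured in these libraries, so the deficiency was not checked here. Nor do the labels say whether the libraries came from single mice or pools.

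The libraries held between 33937823 and 42074624 counts. Levels are given as counts scaled to a common depth (CPM) after TMM scaling, a correction for differences in composition between libraries. With 1 library per group the p-values came from an additive edgeR model of LPS and genotype over 12730 tested genes, in which the spread rests on 1 residual degree of freedom and on the other genes. Ratios between single libraries are given with 95% exact intervals that cover counting error only, and neither they nor the model measure variation between mice. A ratio is called beyond 2-fold where its whole interval is. In bulk RNA, fewer cells producing a transcript and less of it per cell cannot be told apart.

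All 8 macrophage markers passed the filter, with summed levels of 14217, 22912, 12532 and 22367 CPM in deficient LPS, deficient unstimulated, wild-type LPS and wild-type unstimulated cells. Among them Adgre1 and Fcgr1 were called higher with LPS and Lyz2 was called lower. Summed B cell markers were at most 0.348 CPM, NK cell markers at most 0.856 CPM and T cell markers at most 5.74 CPM in any library. Some markers of other cell types were called for LPS: Ly6c2 (monocytes, log2 3.41), Pdgfrb (stroma, 3.98), Lck (T cells, 1.78) and Cpa3 (mast cells, 2.43) higher, and Mmp8 (neutrophils, −1.55), Siglecf (eosinophils, −2.73), Ccr2 (monocytes, −4.05) and Cd4 (T cells, −1.67) lower. The highest of these in the unstimulated libraries was Mmp8, at 762 CPM in deficient cells and 919 CPM in wild-type cells. The part of such markers in the ligand levels was not tested. A pair of facts about the libraries touches the results below. First, the genotypes differed in sex-linked transcripts: Xist was at 687 and 715 CPM in the deficient LPS and unstimulated libraries, against 0.483 and 0.514 CPM in the wild-type LPS and unstimulated libraries. The Y-linked Ddx3y ran the other way, at 0.321 and 0.230 CPM in the deficient libraries and at 46.4 and 43.1 CPM in the wild-type libraries. Genotype and the sex of the mice therefore cannot be told apart. Second, 2 transcripts that were almost silent in deficient unstimulated cells had a small, similar residue in wild-type unstimulated cells. The limits set for them were at least 100 CPM with LPS and at most 0.2% of the LPS level in deficient unstimulated cells. As a share of the library total, unstimulated Il6 was 0.0531% of its LPS level in deficient cells and 1.27% in wild-type cells, and Il12b was 0.139% in deficient cells and 1.79% in wild-type cells. Whether some LPS-treated material was carried into the wild-type unstimulated library was not tested, so ligand results that it moves most are also given after 1.53% of the wild-type LPS library, the median over those 2 genes, had been taken off it. The share is uncertain: after the results were seen, the lower and the higher of the 2 values were taken off as well, and the counting intervals do not cover that uncertainty. Ccr4, Xcr1 and Ccl12 showed no such residue. They had 169, 84 and 162 counts in wild-type LPS cells and 0 in wild-type unstimulated cells. What these counts of 0 mean for the share was not tested.

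The mature miR-7 sequences (RefSeq, GRCm38.p6) are shown because the genotype is defined by them; capitals mark the seed, bases 2 to 8, by which a microRNA pairs with its targets. The first is encoded at chr7:78888295-78888317 on the plus strand (Mir7-2) and at chr13:58392841-58392863 on the minus strand (Mir7-1), the second at chr17:56243017-56243040 on the plus strand (Mir7b).
mmu-miR-7a-5p: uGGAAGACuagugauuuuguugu
mmu-miR-7b-5p: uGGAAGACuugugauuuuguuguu
Both share the seed. Its reverse complement was found once in the annotated 3′ untranslated regions of Ccl6 and Ccl9 and in none of the other 8 ligands, against 14.28% of 11296 tested genes with an annotated 3′ region. The matches begin at base 35 of the Ccl6 region and base 46 of the Ccl9 region, with the 7 matching bases in capitals.
Ccl6: actttcttctGTCTTCCccagtgaccg
Ccl9: actttctttgGTCTTCCccagtgacca
These windows, from neighbouring genes, were identical at 24 of 27 bases. Counted from 1 at the 5′ end with the Ccl6 base first, they differed by C9T, T10G and G27A. A match to the seed is a description of the sequence and does not show that the site is used.

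The ligands together took up a larger share of the library with LPS than without it. They made up 0.882% of all counts in deficient LPS cells (exact 95% interval 0.879 to 0.885%) and 0.381% in deficient unstimulated cells (0.379 to 0.383%). In wild-type cells the share was 0.966% with LPS (0.963 to 0.969%) and 0.367% unstimulated (0.366 to 0.369%). What made up that share differed more than its size. Ccl6 alone held 27.5% of the ligand counts in deficient LPS cells and 75.9% in deficient unstimulated cells; in wild-type cells it held 25.1% with LPS and 74.5% unstimulated. Ccl5 went the other way, holding 39.5% of ligand counts in deficient LPS cells and 0.1499% in deficient unstimulated cells, and 46.4% in wild-type LPS cells and 2.03% in wild-type unstimulated cells. With 1.53% of the wild-type LPS library taken off, the wild-type unstimulated share of Ccl5 was 0.166%, and it was 0.489% with 1.27% taken off. The 8 ligands other than Ccl6 and Ccl9 supplied 67.4% of the ligand counts in deficient LPS cells against 5.01% in deficient unstimulated cells, and 63.3% in wild-type LPS cells against 5.39% in wild-type unstimulated cells as deposited and 2.96% with 1.53% taken off.

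**Figure D1:**
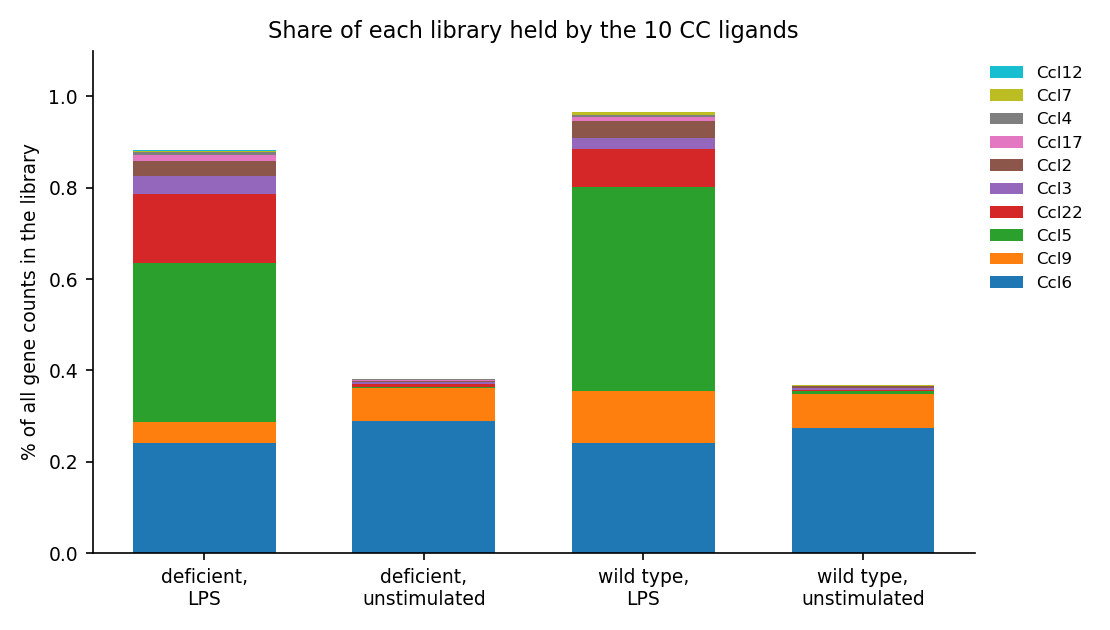
Share of all counts in each library (percent) taken by each of the 10 CC ligands, as stacked bars from 0, 1 library per bar. Ccl6 and Ccl9 fill most of the bars of the unstimulated libraries, while Ccl5, Ccl6 and Ccl22 fill most of the LPS bars.

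Per kilobase of coding transcript, the order of the ligands changed with LPS as well. Ccl5 ranked first in both LPS libraries, at 7368 CPM per kb in deficient cells and 9971 CPM per kb in wild-type cells, and Ccl6 ranked second, at 1893 and 1990.2 CPM per kb. In the unstimulated libraries Ccl6 ranked first, at 1741 CPM per kb in deficient cells and 1658 in wild-type cells, followed by Ccl9 at 210.3 and 215 CPM per kb. Ccl12 ranked last in all 4 libraries and Ccl7 next to last. Intermediate ranks depended on the length used: with the union of all exons in place of the coding transcript, Ccl2 moved from rank 3 to rank 5 in wild-type LPS cells and Ccl9 from rank 5 to rank 3.

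The model called 8 of the 10 ligands higher with LPS and 0 lower, at a Benjamini-Hochberg adjusted p under 0.05 over all 12730 genes. Of all tested genes, 18.0% were called higher and 16.3% lower. Since the ligands were chosen with earlier results of these data known, setting them beside these shares is not a test of the set. The median fitted log2 change was 3.82 over the 10 ligands and −0.04 over all tested genes. Ccl6 and Ccl9 were the 2 ligands not called. The calls for the whole transcriptome, 2297 higher and 2075 lower, became 1550 higher and 3842 lower when libraries were scaled by total counts alone, which moved the median log2 change of all genes to −0.45; the same 8 ligands were called higher under both scalings.

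**Figure D2:**
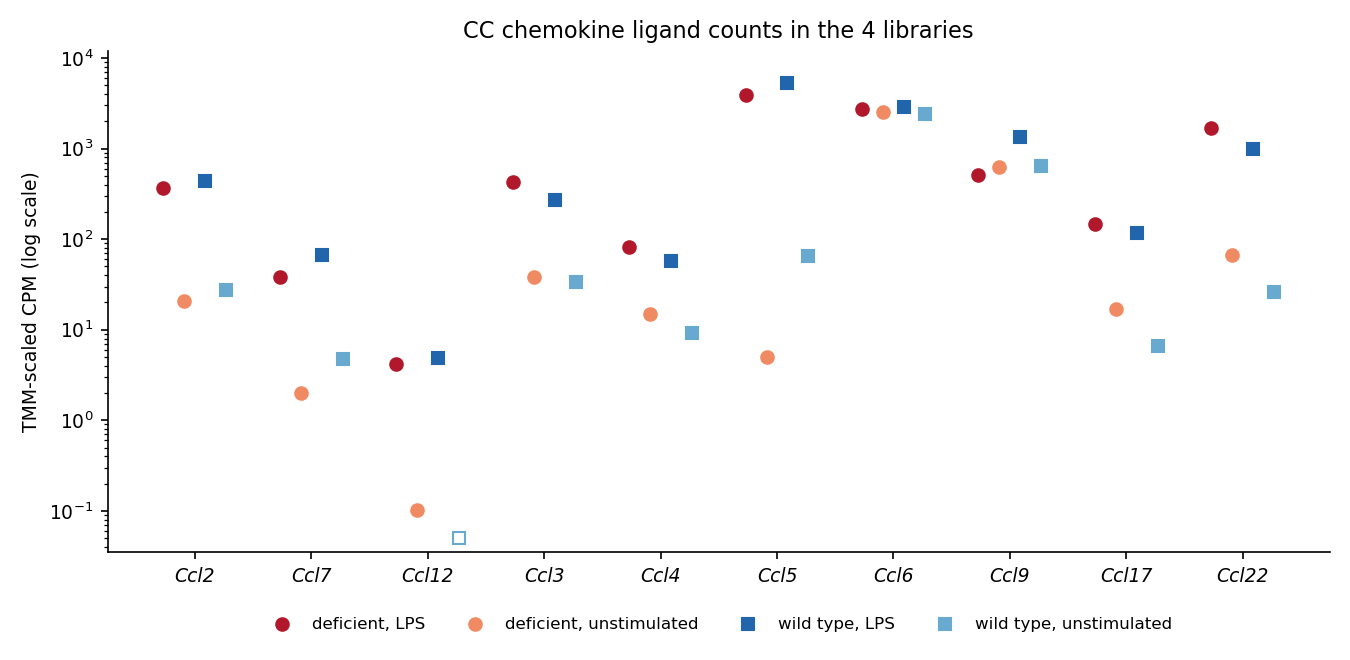
Level of each CC ligand (CPM after TMM scaling, log axis) in the 4 libraries, 1 point per library, with an open square for a count of 0. For 8 ligands both LPS points lie above both unstimulated points, the points of Ccl6 lie close together, and Ccl9 is highest in the wild-type LPS library.

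The monocyte attractants Ccl2, Ccl7 and Ccl12 all rose with LPS. Ccl2, the principal monocyte chemoattractant of the mouse, was at 366 CPM in deficient LPS cells and 20.9 CPM in deficient unstimulated cells, and at 438 CPM in wild-type LPS cells and 27.4 CPM in wild-type unstimulated cells. Both LPS libraries were far above both unstimulated ones, and the fitted log2 change was 4.06 ± 0.21 (SE; adjusted p = 0.000173). The ratio was 17.5-fold in deficient cells (interval 16.3 to 18.8) and 15.95-fold in wild-type cells (15.1 to 16.9). Ccl7, which shares Ccr2 and also binds Ccr1 and Ccr3, was scarcer, with 38.6 CPM in deficient LPS cells, 1.99 CPM in deficient unstimulated cells, 67.2 CPM in wild-type LPS cells and 4.71 CPM in wild-type unstimulated cells. Its fitted log2 change was 4.04 ± 0.25 (adjusted p = 0.000218), close to that of Ccl2. Ccl12, a mouse Ccr2 ligand, had 156 counts in deficient LPS cells, 4 in deficient unstimulated cells, 162 in wild-type LPS cells and 0 in wild-type unstimulated cells. These came to 4.17, 0.102, 4.89 and 0 CPM. The ratio was 40.9-fold in deficient cells, with a wide interval of 15.6 to 152-fold. In wild-type cells, setting the unstimulated library at a floor of 3 counts gave a Ccl12 ratio of 76.2-fold. The exact interval for a count of 0 had a lower limit of 61.3-fold, so 76.2-fold is not a lower bound. The model called it (adjusted p = 0.00337), but its fitted log2 value of 6.54 depends on the prior count added to the 0.

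Ccl3 and Ccl4 are related ligands whose genes lie side by side; both attract monocytes and T cells. Both rose with LPS, with smaller fitted values than the monocyte attractants. Ccl3 was at 432 CPM in deficient LPS cells, 38.5 CPM in deficient unstimulated cells, 268 CPM in wild-type LPS cells and 33.3 CPM in wild-type unstimulated cells, a fitted log2 change of 3.25 ± 0.22 (adjusted p = 0.000285). Ccl4 was at 81.7 CPM in deficient LPS cells, 15.0 CPM in deficient unstimulated cells, 56.8 CPM in wild-type LPS cells and 9.25 CPM in wild-type unstimulated cells. Its fitted log2 change of 2.53 ± 0.21 (adjusted p = 0.00052) was the smallest among the 8 called ligands. The Ccl4 ratio was 5.43-fold in deficient cells (interval 4.97 to 5.94) and 6.14-fold in wild-type cells (5.53 to 6.84).

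Ccl5, which attracts T cells and monocytes, had the highest fitted value of the 10 ligands, a log2 change of 7.95 ± 0.94 (adjusted p = 0.00161). It had 146565 counts in deficient LPS cells, 194 in deficient unstimulated cells, 175596 in wild-type LPS cells and 3036 in wild-type unstimulated cells, or 3919.9, 4.95, 5305 and 65.0 CPM. The ratio was 791-fold in deficient cells (interval 687 to 916) and 81.6-fold in wild-type cells (78.7 to 84.6). The gap between these ratios came from the unstimulated libraries, since the LPS levels differed much less. As a share of the library total, unstimulated Ccl5 was 0.164% of its LPS level in deficient cells and 1.66% in wild-type cells, the wild-type value falling between those of Il6 and Il12b. With 1.53% of the wild-type LPS library taken off, 238 of the 3036 counts were left, or 5.10 CPM, and the wild-type log2 ratio became 10.02 (9.84 to 10.21), against 9.63 (9.43 to 9.84) in deficient cells. With 1.27% taken off, 708 counts were left and the wild-type log2 ratio was 8.45; with 1.79% taken off, none were left. Without the wild-type LPS library, in a model of LPS alone, Ccl5 missed the threshold with an adjusted p of 0.0623 and a log2 value of 6.83.

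Ccl6 and Ccl9 bind Ccr1 and are made by resting myeloid cells. Neither was called for LPS. Ccl6 was the most abundant ligand in unstimulated cells and was high in every library, at 2726 CPM in deficient LPS cells, 2506 CPM in deficient unstimulated cells, 2866 CPM in wild-type LPS cells and 2388 CPM in wild-type unstimulated cells. Its fitted log2 change was 0.19 ± 0.20 (adjusted p = 0.503) and its ratio was 1.09-fold in deficient cells and 1.20-fold in wild-type cells; scaled by total counts the fitted value was −0.22. Ccl9 was at 509 CPM in deficient LPS cells, 632 CPM in deficient unstimulated cells, 1329 CPM in wild-type LPS cells and 645 CPM in wild-type unstimulated cells. The other 3 libraries lay below the wild-type LPS library, which stood apart. The log2 ratio was −0.31 in deficient cells (interval −0.34 to −0.29) and 1.04 in wild-type cells (1.02 to 1.06), so the fitted change, 0.36 ± 0.34 (adjusted p = 0.455), averages over opposite directions. Scaled by total counts the log2 ratios were −0.69 in deficient cells and 0.60 in wild-type cells, and Ccl9 was then no longer beyond 2-fold in wild-type cells. Ccl9 depends on single libraries: in the model of LPS alone its log2 value was −0.31 (adjusted p = 0.347) without the wild-type LPS library and 1.08 (adjusted p = 0.0349) without the deficient LPS library. Of the 50-base stretches of the Ccl9 transcript, 1.995% also occur in transcripts of other genes, while the other 9 ligands share none.

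Ccl17 and Ccl22, ligands of Ccr4 that are known as products of dendritic cells and of alternatively activated macrophages, both rose with LPS. Ccl22 was at 1699 CPM in deficient LPS cells, 66.9 CPM in deficient unstimulated cells, 981 CPM in wild-type LPS cells and 26.4 CPM in wild-type unstimulated cells, a fitted log2 change of 4.94 ± 0.26 (adjusted p = 0.000173). Per kilobase it had rank 3 among the ligands in deficient LPS cells. Ccl17 was at 147 CPM in deficient LPS cells, 17.1 CPM in deficient unstimulated cells, 116 CPM in wild-type LPS cells and 6.66 CPM in wild-type unstimulated cells, with a fitted log2 change of 3.60 ± 0.30 (adjusted p = 0.00052). In each pair of libraries Ccl22 had the larger ratio, 25.4-fold against 8.57-fold for Ccl17 in deficient cells and 37.2-fold against 17.4-fold in wild-type cells. With the share of 1.53% taken off, the wild-type ratios were 64.2-fold for Ccl22 and 21.6-fold for Ccl17. Of 8 dendritic cell markers 6 were tested; Ccr7, Xcr1 and Dpp4 were called higher with LPS and Clec9a lower. Flt3 was at 0 in all 4 libraries. The 8 markers summed to 1547 CPM in deficient LPS cells, 1800 CPM in deficient unstimulated cells, 1458 CPM in wild-type LPS cells and 1655 CPM in wild-type unstimulated cells, mostly Itgax, and their part in the Ccl17 and Ccl22 levels was not tested.

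**Figure D3:**
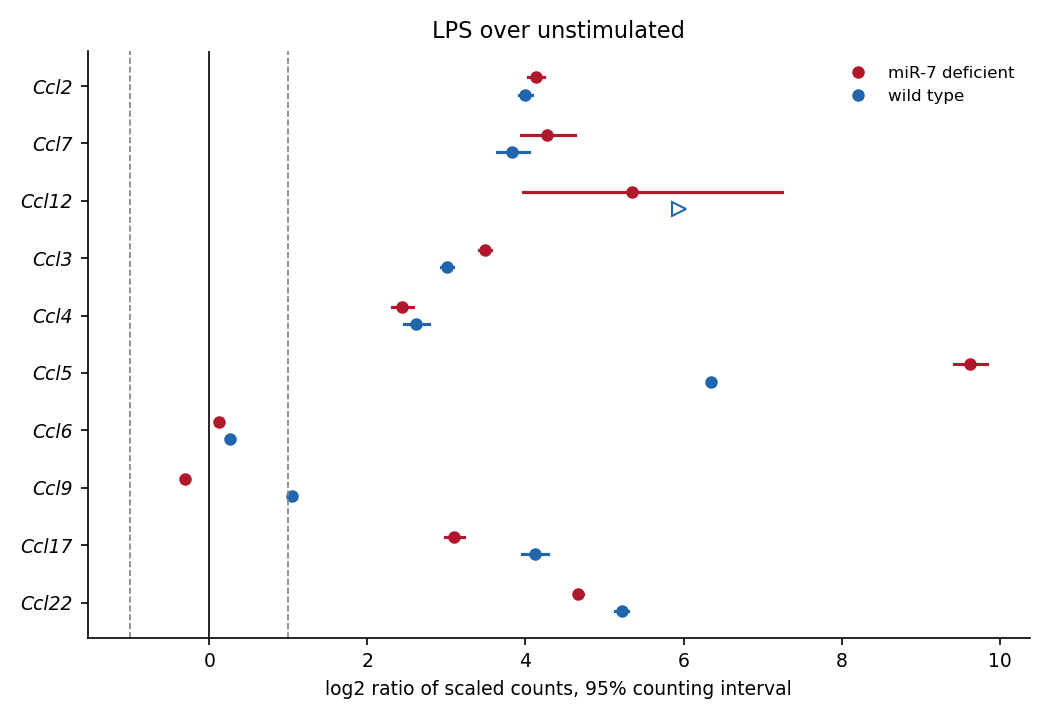
Log2 ratio of LPS over unstimulated for each CC ligand in deficient and in wild-type cells, with exact 95% intervals for counting error; dashed lines mark 2-fold and the open triangle is the lower limit of the interval for Ccl12, whose wild-type unstimulated count was 0. As deposited, Ccl5 is at 9.63 in deficient cells and 6.35 in wild-type cells, or 10.02 in wild-type cells with 1.53% of the LPS library taken off, and Ccl9 lies below 0 in deficient cells and above 0 in wild-type cells.

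Counted in each genotype separately, 8 ligands were beyond 2-fold higher with LPS in deficient cells, where 12.5% of tested genes were, and 9 in wild-type cells, where 14.8% were. Ccl9 was the ligand counted in wild-type cells alone. No ligand was beyond 2-fold lower in deficient cells, where 11.8% of tested genes were, or in wild-type cells, where 13.3% were.

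Of the ligands, 8 lie on chromosome 11 in a pair of clusters, and the uncalled genes are neighbours there. In one, Ccl2 (chr11:82035571-82037453, GRCm38), Ccl7 and Ccl12 lie on the plus strand, with 66.3 kb between the annotated starts of Ccl2 and Ccl12, among Ccl11, Ccl8 and Ccl1. The second cluster runs from Ccl5 (chr11:83525778-83530518, minus strand) through Ccl9 and Ccl6 to Ccl3 and Ccl4, whose annotated start is 136.8 kb from that of Ccl5. Within it, Ccl9 (chr11:83572919-83578636) and Ccl6 (chr11:83587882-83593087), which were not called, lie between Ccl5 on one side and Ccl3 and Ccl4 on the other, which all rose. Ccl22 (chr8:94745590-94751699) and Ccl17 (chr8:94810453-94812036) are neighbours on chromosome 8. None of the 10 shares exonic bases with another annotated gene.

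**Figure D4:**
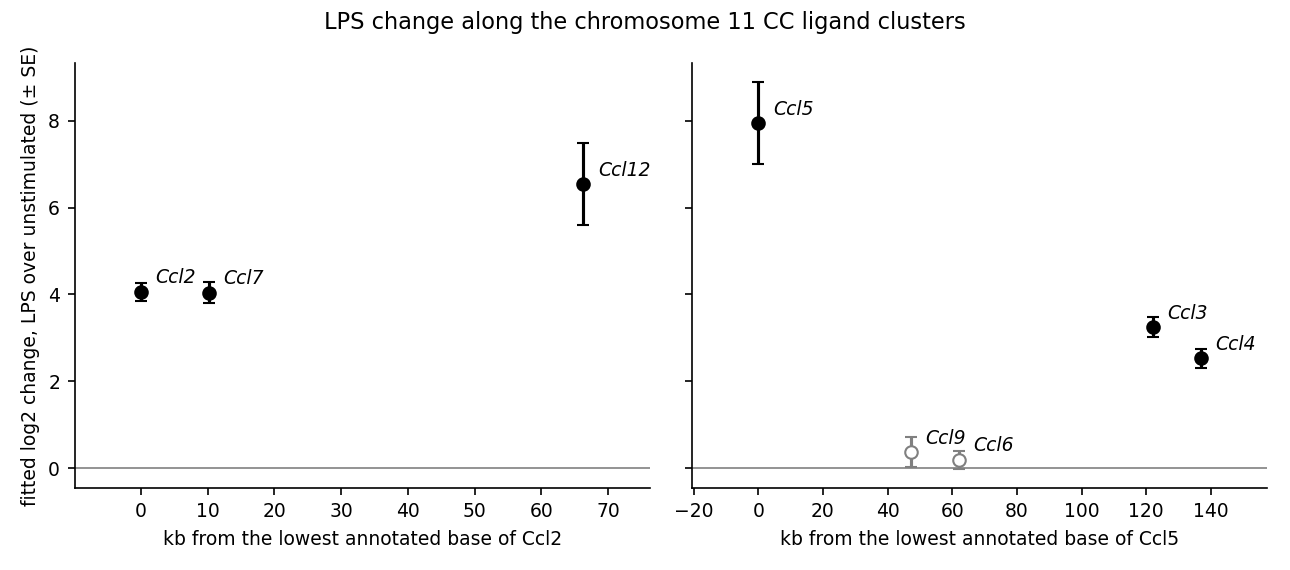
Fitted log2 LPS change (edgeR, ± SE) of CC ligand genes against their distance in kb from the lowest annotated base of the first gene in each chromosomal cluster; filled black points were called and open grey points were not. Ccl9 and Ccl6 sit near 0 between Ccl5 at 7.95 and the Ccl3 and Ccl4 pair at 3.25 and 2.53, and the fitted value of Ccl12 depends on the prior count.

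RefSeq gave a promoter for 6 of the 10 ligands: Ccl3, Ccl6, Ccl9, Ccl12, Ccl17 and Ccl22. Sequences for Ccl2, Ccl4, Ccl5 and Ccl7 were not used here. Because LPS acts on many chemokine genes through NF-κB and interferon signalling, the 6 were searched on both strands for a loose κB motif (GGG, any 5 bases, CC) and an interferon-stimulated response element core (GAAA, any 2 bases, GAAA), from 250 bases upstream to 50 downstream of the start. The κB motif was found in 50.79% of 32851 mouse promoters and the second motif in 3.443%. A κB match was present once in Ccl9, 35 bases upstream of the RefSeq start, and at 2 places in Ccl22, 162 and 131 bases upstream of its RefSeq start, all on the strand opposite the gene. The RefSeq start of Ccl22 lies 94 bases inside the GENCODE gene given above, so part of its window is within that gene; Ccl3, Ccl6, Ccl12 and Ccl17 had none in this window. None of the 6 held the interferon motif. The 250 upstream bases (GRCm38.p6, strand of the gene) are printed for Ccl12, which had the highest fitted change among the 6, and for the abundant, uncalled Ccl6; Ccl22 and Ccl9 were added after the matches were seen. Capitals mark the κB matches as read on the gene's strand.
Ccl12 (chr11:82101595-82101844, plus strand): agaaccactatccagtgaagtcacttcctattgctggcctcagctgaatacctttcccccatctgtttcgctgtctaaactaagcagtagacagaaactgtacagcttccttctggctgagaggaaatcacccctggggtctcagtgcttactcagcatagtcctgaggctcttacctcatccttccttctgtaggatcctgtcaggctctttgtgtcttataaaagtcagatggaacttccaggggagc
Ccl22 (chr8:94745434-94745683, plus strand): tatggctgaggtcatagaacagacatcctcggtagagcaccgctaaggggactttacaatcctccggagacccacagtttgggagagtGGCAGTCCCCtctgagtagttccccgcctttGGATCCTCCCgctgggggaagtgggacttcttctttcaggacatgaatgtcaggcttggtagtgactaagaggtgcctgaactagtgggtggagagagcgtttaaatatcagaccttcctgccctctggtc
Ccl6 (chr11:83593088-83593337, minus strand): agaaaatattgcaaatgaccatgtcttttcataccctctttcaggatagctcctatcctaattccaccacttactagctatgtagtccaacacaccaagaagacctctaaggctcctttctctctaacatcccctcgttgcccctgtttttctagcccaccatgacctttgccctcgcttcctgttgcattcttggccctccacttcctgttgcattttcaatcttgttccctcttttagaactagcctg
Ccl9 (chr11:83578637-83578886, minus strand): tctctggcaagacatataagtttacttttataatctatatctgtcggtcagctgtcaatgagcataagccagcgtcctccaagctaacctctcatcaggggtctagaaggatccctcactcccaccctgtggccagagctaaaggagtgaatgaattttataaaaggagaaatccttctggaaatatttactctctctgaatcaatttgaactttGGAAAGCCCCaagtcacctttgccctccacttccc
Matches were thus present in a called and an uncalled ligand and missing from both kinds.

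The 3′ regions also differed in the pentamer ATTTA, the core of AU-rich elements that mark many cytokine mRNAs for rapid decay. It occurred at least once in 70.51% of tested genes with a 3′ region, at a median of 1.379 per kb. Ccl12 had 5 in 167 bases, or 29.94 per kb, and Ccl3 had 5 in 409 bases, or 12.22 per kb. Ccl4 had 6.623, Ccl7 4.598, Ccl6 4.242, Ccl2 3.636, Ccl9 2.028 and Ccl22 1.103 per kb, while Ccl5 and Ccl17 had none. The ligand with the highest fitted LPS change thus had no ATTTA, and the next, Ccl12, was the densest.

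For the genotype contrast, 0 of the 10 ligands were called by the edgeR model at an adjusted p under 0.05, where 0.550% of tested genes were. At an unadjusted p under 0.05 there were 5 of 10 ligands, against 7.60% of tested genes: Ccl4, Ccl17 and Ccl22 with higher fitted values in deficient cells and Ccl5 and Ccl7 with lower ones. That count was 4 with DESeq2 size factors or total counts. It was 0 with genotype alone, a fit in which the LPS change counts as spread within each genotype. That 0 therefore cannot decide how firm the count of 5 is. Fits without 1 of the 4 libraries also had no LPS term, so their genotype values follow LPS. They ran from −9.10 to 4.93 for Ccl5. The fitted Ccl5 value was −2.03 as deposited, −0.26 with 1.53% of the wild-type LPS library taken off, −1.01 with 1.27% and 2.32 with 1.79%, with adjusted p-values of 0.606, 0.962, 0.518 and 0.963. DESeq2's Wald test called 1, Ccl22, with an adjusted p of 0.00159 against 0.211 in edgeR and at least 0.181 under every other alternative run. The fitted log2 difference of deficient against wild-type cells was 1.06 ± 0.23 for Ccl22, 0.84 ± 0.28 for Ccl17 (adjusted p = 0.495) and −1.003 ± 0.23 for Ccl7 (adjusted p = 0.242). As stated above, genotype and the sex of the mice cannot be told apart in these values. Among the cell type markers, Chil3, a secreted chitinase-like protein, was called lower in deficient cells, at 466 and 728 CPM in the deficient LPS and unstimulated libraries and 2331 and 2586 CPM in the wild-type LPS and unstimulated libraries; its part in the ligand differences was not tested.

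**Figure D5:**
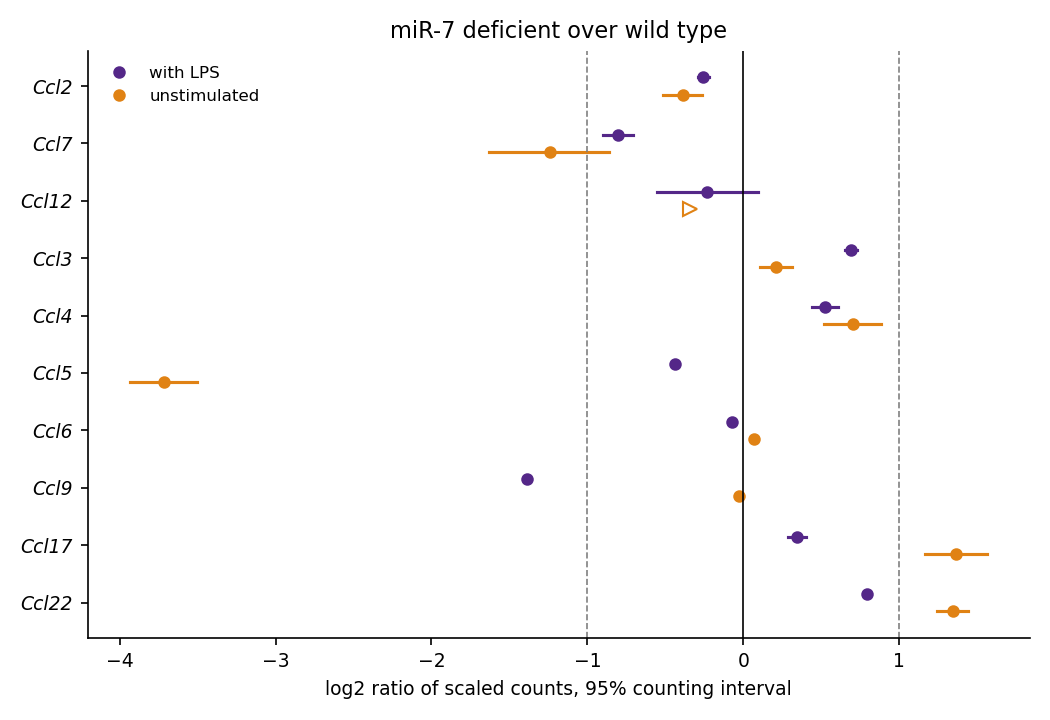
Log2 ratio of deficient over wild-type cells for each CC ligand with LPS and without LPS, with exact 95% intervals for counting error; dashed lines mark 2-fold and the open triangle is a lower bound where the wild-type count was 0. With LPS Ccl9 lies beyond 2-fold, at −1.39; without LPS Ccl17 and Ccl22 lie beyond 2-fold at 1.36 and 1.34 and Ccl5, as deposited, at −3.71; the Ccl5 value depends on the wild-type unstimulated library.

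With LPS, 1 ligand was beyond 2-fold lower in deficient cells, against 3.04% of tested genes, and 0 were beyond 2-fold higher, against 2.58%. Ccl9 was 2.61-fold lower in deficient cells, a log2 ratio of −1.39 (interval −1.41 to −1.36). Ccl7 was also lower, at −0.80 (−0.90 to −0.71), while Ccl22 and Ccl3 were higher in deficient LPS cells, at 0.79 (0.77 to 0.81) and 0.69 (0.65 to 0.73). The remaining log2 ratios with LPS were 0.52 for Ccl4, 0.34 for Ccl17, −0.07 for Ccl6, −0.23 for Ccl12, −0.26 for Ccl2 and −0.44 for Ccl5. The 2 ligands with a miR-7 seed match thus included the ligand furthest from 0 and the one nearest to 0.

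Without LPS, 2 ligands were beyond 2-fold higher in deficient cells, against 2.82% of tested genes, and 1 was beyond 2-fold lower, against 1.41%. Ccl17 and Ccl22 were higher in deficient unstimulated cells, at log2 ratios of 1.36 (interval 1.17 to 1.56) and 1.34 (1.24 to 1.44). Ccl5 was lower, at −3.71 (−3.93 to −3.50), or 13.1-fold, as deposited. With 1.53% of the wild-type LPS library taken off, the Ccl5 log2 ratio was −0.04 (−0.32 to 0.24), with 1.27% it was −1.61 (−1.85 to −1.38), and with 1.79% no wild-type count was left, so its size and direction depend on the share. Those of Ccl17 and Ccl22 were 1.68 (1.47 to 1.89) and 2.13 (2.01 to 2.25) with 1.53% taken off. Ccl7 had a log2 ratio of −1.24, but its interval of −1.63 to −0.86 reached inside 2-fold. The others were 0.70 for Ccl4, 0.21 for Ccl3, 0.07 for Ccl6, −0.03 for Ccl9 and −0.39 for Ccl2. With 1.53% taken off, the Ccl2 ratio was −0.10 (−0.24 to 0.03). Ccl12, with 4 counts in deficient cells and 0 in wild-type cells, allows no fold.

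The size of the LPS change itself, as the deficient ratio over the wild-type ratio, was beyond 2-fold larger for 1 ligand, against 2.26% of tested genes, and beyond 2-fold smaller for 1, against 3.82%. It has no test, since 1 library per group leaves no residual for that term. For Ccl9 the log2 difference was −1.36 (interval −1.39 to −1.32), and with 1.53% of the wild-type LPS library taken off it was −1.39. For Ccl5 it was 3.27 (3.06 to 3.48) as deposited, 1.17 (0.95 to 1.40) with 1.27% taken off and −0.40 (−0.67 to −0.12) with 1.53% taken off, so its direction depends on the share chosen. Ccl17 and Ccl22 had smaller LPS ratios in deficient cells, at −1.02 (−1.22 to −0.81) and −0.55 (−0.65 to −0.45) as deposited; both went beyond 2-fold, at −1.33 and −1.34, with 1.53% taken off, and at −1.28 and −1.17 with 1.27%. Ccl3, at 0.48, Ccl7, at 0.43, Ccl2, at 0.13, Ccl6, at −0.14, and Ccl4, at −0.18, were all within 2-fold. With 1.53% taken off, the Ccl2 value changed sign, to −0.15 (−0.29 to −0.02), while Ccl3, Ccl7, Ccl6 and Ccl4 kept theirs.

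The other CC ligands were close to absent. Of 14 listed, 13 were found in the annotation, 7 were at 0 in all libraries and 1, Ccl25, was tested. Ccl25, a thymic and intestinal attractant, was at 4.81, 2.09, 4.92 and 2.36 CPM in deficient LPS, deficient unstimulated, wild-type LPS and wild-type unstimulated cells and was not called (log2 1.13 ± 0.38, adjusted p = 0.0617); it overlaps Elavl1, so reads of the pair may not be separable. Ccl8, a monocyte attractant of the Ccl2 cluster, had 38, 30, 40 and 25 counts in the same order, and Ccl24, an eosinophil attractant, 18, 20, 82 and 18.

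Among 15 CC receptors and related genes, 8 were tested. Of these, 4 were called higher with LPS, against 18.0% of all tested genes, and 0 were called for genotype, against 0.550%. Ccr2, the receptor of Ccl2, Ccl7 and Ccl12, fell with LPS while its ligands rose, to 1.87 CPM in deficient LPS cells against 24.3 CPM in deficient unstimulated cells, and to 1.09 CPM in wild-type LPS cells against 23.7 CPM in wild-type unstimulated cells (log2 −4.05 ± 0.31, adjusted p = 0.00039). Ccr1, the receptor of Ccl3, Ccl5, Ccl6 and Ccl9, was not called, at 141 CPM in deficient LPS cells, 268 CPM in deficient unstimulated cells, 227 CPM in wild-type LPS cells and 268 CPM in wild-type unstimulated cells (log2 −0.58 ± 0.23, adjusted p = 0.0983); it was called lower when scaled by total counts, at −0.99, and without the wild-type LPS library, at −0.91 (adjusted p = 0.0392).

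Ccr4, the receptor of Ccl17 and Ccl22, had 305 counts in deficient LPS cells, 0 in deficient unstimulated cells, 169 in wild-type LPS cells and 0 in wild-type unstimulated cells, and was called higher (adjusted p = 0.000835). The receptor and both ligands were thus all higher with LPS in these cells. Ccr7, which guides dendritic cells and T cells to lymph nodes, was at 317 CPM in deficient LPS cells, 4.09 CPM in deficient unstimulated cells, 148 CPM in wild-type LPS cells and 4.41 CPM in wild-type unstimulated cells (log2 5.67 ± 0.36, adjusted p = 0.00023). Ccrl2, an atypical receptor that does not signal in migration, rose with a log2 change of 3.90 ± 0.25 (adjusted p = 0.000221), to 484 CPM in deficient LPS cells against 39.7 CPM in deficient unstimulated cells and 488 CPM in wild-type LPS cells against 26.6 CPM in wild-type unstimulated cells. Ccr9, the receptor of Ccl25, was called with at most 59 counts (log2 1.93 ± 0.57, adjusted p = 0.0437) and overlaps other genes. It missed the threshold without the deficient unstimulated (adjusted p = 0.102) or wild-type unstimulated library (0.181), with total counts (0.0764), with no filter (0.108), with DESeq2 (0.135) and with 1.79% of the wild-type LPS library taken off (0.0506). Ackr4, a scavenger of several ligands, was at 1.23, 1.79, 1.27 and 0.985 CPM in deficient LPS, deficient unstimulated, wild-type LPS and wild-type unstimulated cells and was not called (adjusted p = 0.909).

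Of 26 genes that control chemokine transcription or mRNA decay, 17 were called higher with LPS and 1, Fos, lower. Of all tested genes, 18.0% were called higher and 16.3% lower. The list was chosen with earlier results of these data known, so this comparison is descriptive. Irf7, an interferon-induced transcription factor, rose by a log2 of 6.10 ± 0.48 (adjusted p = 0.000437), with 1166 CPM in deficient LPS cells, 9.47 CPM in deficient unstimulated cells, 1081 CPM in wild-type LPS cells and 28.0 CPM in wild-type unstimulated cells. Nfkbiz, an atypical nuclear IκB protein, rose by 4.19 ± 0.27 (adjusted p = 0.00023). None of the 26 was called for genotype, against 0.550% of tested genes.

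Secreted chemokines are trimmed by proteases and held on proteoglycans. Of 12 such genes 6 were called higher with LPS and 1, the lysosomal protease Ctsd, lower. Among all tested genes the shares were 18.0% higher and 16.3% lower. Sdc4, a cell-surface proteoglycan, rose by a log2 of 4.11 ± 0.20 (adjusted p = 0.000173), with 135 CPM in deficient LPS cells, 7.99 CPM in deficient unstimulated cells, 210 CPM in wild-type LPS cells and 11.9 CPM in wild-type unstimulated cells. Dpp4, the peptidase that clips the amino end of several CC ligands, rose by 3.62 ± 0.58 (adjusted p = 0.00514) at no more than 3.42 CPM; without the wild-type unstimulated library its adjusted p was 0.094. The Ctsd change of −0.78 ± 0.21 (adjusted p = 0.0323) missed the threshold without the deficient LPS (adjusted p = 0.167), wild-type LPS (0.217) or wild-type unstimulated library (0.122), with no filter (0.0722) and with 1.79% of the wild-type LPS library taken off (0.0557). Mmp12, a macrophage elastase, was at 7362 CPM in deficient LPS cells, 11117 CPM in deficient unstimulated cells, 13888 CPM in wild-type LPS cells and 10183 CPM in wild-type unstimulated cells and was not called (log2 −0.07 ± 0.30, adjusted p = 0.869). None of the 12 was called for genotype, against 0.550% of tested genes.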

How the data were processed

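Total RNA was enriched for polyadenylated transcripts and sequenced on a HiSeq 2000, per the series' design text, which names Casava v1.8.2, Cutadapt, TopHat v2.0.13 with Bowtie2 and Partek. The submitters' processing notes name HTSeq and the mm8 build; the strand setting was not given in those sources. The authors deposited raw read counts per Ensembl gene, 1 file per library. Of 52550 identifiers, 52403 (99.7%) matched GENCODE mouse release 21 (GRCm38) without version, and 49035 with version; the 10 ligands matched with version. No row was blank or a total.

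The filter on low counts kept 12730 genes that reached a CPM of 1 in 2 libraries, and all 10 ligands passed it. Counts were scaled by TMM (factors 0.846 to 1.156) and fitted with edgeR 4.0.16 (quasi-likelihood, genotype plus LPS, 1 residual degree of freedom, common biological coefficient of variation 0.2465); SE is the coefficient over the root of F. Benjamini-Hochberg adjustment ran over all tested genes. Ratios between libraries have exact Clopper-Pearson 95% intervals, and the ratio of ratios has a normal interval after 0.5 counts were added. These intervals and the floor of 3 counts cover counting error only. DESeq2 1.42.0, other scalings, filters, fold limits, single-factor models, leaving out each library, and taking a share of the wild-type LPS library off were tried; the lowest and highest share were chosen after the data were seen. Sequences are RefSeq's. The ligands and gene lists were chosen with earlier results of these data known. All 10 ligands are given; other ligands and receptors are named at 1 CPM or more in any library, and of the remaining lists 2 genes by mean CPM and 2 by size of the fitted LPS change. Some genes of these lists are not reported here.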

Additional observations from a re-analysis of the deposited data

Results flagged for a closer look

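Ccl9 had an LPS log2 ratio of −0.31 in deficient cells and 1.04 in wild-type cells, opposite directions in the genotypes; with 1 library per group this difference was not tested.

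Ccl6 had a deficient over wild-type log2 ratio of −0.07 with LPS (−0.072) and 0.07 without LPS (0.070), opposite directions of small size; this difference was not tested, and scaled by total counts the first value was 0.00088 with an interval that spans 0.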

How the results depend on the processing

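With 1 library per group, p-values rest on the additive model; depth limits Ccl12 and, without LPS, Ccl7. No paired analysis was possible because each group has 1 library and the labels give no shared replicate numbers. Of 127 refitted LPS values of the ligands 122 kept direction and call, 1 lost and 1 gained the call and 3 reversed. Of 127 genotype values 106 kept both, 1 gained the call and 20 reversed. Of 197 LPS values of other genes 176 kept both, 15 lost and 3 gained the call and 3 reversed. The genotype tally includes fits with genotype alone or without 1 library. These have no LPS term, so a reversal in them can follow LPS. Outside them, the reversals were Ccl5 with the highest share taken off and Ccl6 with total counts. The ligands called for LPS numbered 6 to 8 in every alternative; Ccl12 was not tested without either LPS library. Causes were not tested.

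Leaving out 1 library gave 1623 to 3221 genes called for LPS, against 4372 in the additive model: 1922 without the deficient unstimulated, 2644 without the wild-type LPS and 1623 without the wild-type unstimulated library. Genes called for genotype numbered 70 in the additive model, 44 with DESeq2 size factors and 30 with no filter. DESeq2's Wald test called 228, with 1 ligand among them. With the median, lowest and highest share taken off the counts were 44, 51 and 30. With genotype alone 0 were called (187 at an unadjusted p under 0.05). LPS changes then count as spread within each genotype, so that 0 cannot decide how firm the 70 are. Ligands beyond the limit by genotype with LPS were 4 at 1.5-fold and 0 at 4-fold. At 4-fold there was 1 without LPS and 1 in the difference between LPS effects, in each case Ccl5 as deposited. With 1.53% of the wild-type LPS library taken off, these Ccl5 log2 values were −0.04 and −0.40. Shares of all tested genes were computed at 2-fold only, so the counts at 1.5-fold and 4-fold have no background. Scaled by total counts, the fitted LPS change was −0.22 for Ccl6 and −0.045 for Ccl9, and the genotype value of Ccl6 was 0.041. With genotype alone, Ccl12 was at −0.19. With the highest share taken off, chosen after the data were seen, the genotype value of Ccl5 was 2.32. In that setting 4 ligands were beyond 2-fold in the difference between LPS effects, Ccl5 with no wild-type count left. No share of all tested genes was computed for that setting.

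Leaving out 1 library, the LPS value ranged from −0.31 to 1.08 for Ccl9, −0.50 to 0.31 for Ackr4 and −0.51 to 0.40 for Mmp12. The genotype value, which then shares its libraries with LPS, ranged from −3.49 to 2.84 for Ccl2, −1.99 to 2.84 for Ccl3, −1.15 to 2.40 for Ccl4, −9.10 to 4.93 for Ccl5, −0.15 to 0.14 for Ccl6, −4.19 to 2.12 for Ccl7, −1.21 to 0.76 for Ccl12, −1.85 to 3.64 for Ccl17 and −2.93 to 5.08 for Ccl22.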
